A study of Mus musculus with 6 samples.

Results

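Tumor epithelial cells were taken from single-cell libraries made from CD45+ bead isolates of mouse pancreatic tumors, in which malignant cells had passed through the isolation beside the leukocytes. A cell was a member when it had at least 1000 detected genes, at most 10% mitochondrial UMIs, at least 5 UMIs of the keratins Krt8 and Krt18 together, no UMI of Ptprc (the gene of CD45), at most 2 UMIs of the complement genes C1qa, C1qb and C1qc together, and at least 2/3 of its hashtag antibody UMIs from 1 hashtag. By this rule 9410 of the 99916 cells deposited for PBS and IL10/2-Trikine were members, 2720 from PBS and 6690 from IL10/2-Trikine, out of 130444 cells in the series. The mouse, read from its hashtag, was the unit of replication, with 5 mice in each group.

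The tumors were subcutaneous grafts of 6694c2vTRP1, a cultured mouse pancreatic ductal adenocarcinoma line, in male and female C57BL/6 mice, so all groups carried the same line. From day 8 the mice were given 2 intraperitoneal doses of PBS, of mono-IL10 (a monomeric human IL-10) or of IL10/2-Trikine (mono-IL10 linked to a binder that also draws in the IL-2 receptor beta chain), and the tumors were taken on day 14. The dose was 26 µg a mouse for mono-IL10 and 30.6 µg a mouse for IL10/2-Trikine. Each treatment was 1 library of 5 pooled, hashtagged mice, so that treatment and library cannot be told apart in any comparison here. The comparison of IL10/2-Trikine with PBS asked how the malignant cells responded to treatment, and mono-IL10 was used as a second reference. Nothing in the labels ties a mouse of one group to a mouse of another.

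Pancreatic carcinoma cells of this kind live with low oxygen, scarce nutrients and a high load of secretory protein. The integrated stress response and the unfolded protein response answer such conditions: the kinases of these pathways slow translation while factors such as ATF4, CHOP (Ddit3) and XBP1 switch on chaperones, amino acid synthesis and stress hormones. Interferon-gamma, which T and NK cells release, acts on the same cells and raises GTPases, antigen presentation and chemokines. Epithelial cells express the shared IL-10 receptor chain Il10rb but little of the ligand-binding chain Il10ra or of the IL-2 receptor chains Il2rb and Il2rg.

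The label was checked with epithelial markers that the rule did not use. Krt19, a ductal keratin, had 1159 ± 106 CPM (UMIs scaled to a common library total; mean ± SD, n = 5) in PBS and 856 ± 31.8 in IL10/2-Trikine, against 4.28 and 10.4 CPM in macrophages of the same libraries. Krt7 lay between 146 and 220 CPM in all 10 mice, and Cdh1 (E-cadherin) between 257 and 311 CPM. Epcam was low, at 9.49 to 24.4 CPM in PBS and 10.4 to 35.3 CPM in IL10/2-Trikine. Kdm5d, on the Y chromosome, had no UMI in the 10 mice and Ddx3y was at most 0.094 CPM, while Xist was at least 3303 CPM in each of them.

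Depth differed between the libraries and bears on what follows. Members held a median of 27551 UMIs in PBS and 10502 in IL10/2-Trikine, with 5570 and 3362 genes, and mitochondrial medians of 2.09% and 2.27%; the lowest PBS mouse (24904) lay above the highest IL10/2-Trikine mouse (12725). The summed counts per mouse ran from 8136851 to 38631350 in PBS and from 4415684 to 35949305 in IL10/2-Trikine. Of the cells that met every limit but that on the hashtag share, 27.9% in PBS and 32.4% in IL10/2-Trikine could be given to a mouse. Among macrophages the shares were 80.6% and 86.7%. Near the keratin limit, 22 PBS and 247 IL10/2-Trikine members had 5 or 6 keratin UMIs, and 21 and 164 cells with 3 or 4 would otherwise have been members. The limit on Ptprc removed 2597 and 3851 assigned cells with enough keratin, and that on C1q a further 133 and 701. The libraries shared 5 barcode sequences among their members.

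**Figure D1:**
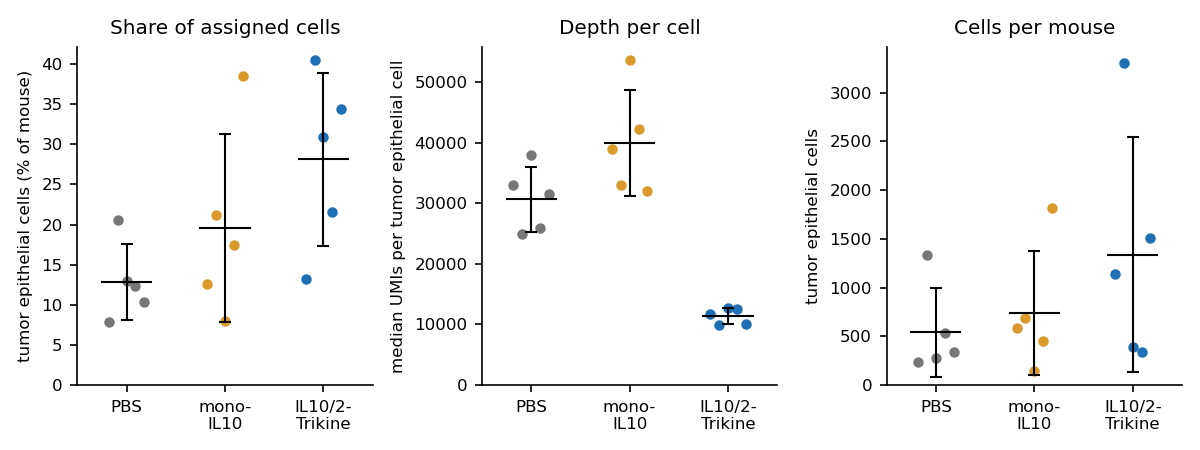
Tumor epithelial cells by mouse: their share of all cells assigned to the mouse (left, percent), the median UMIs per cell (middle) and their number (right), with 1 point a mouse and the mean ± SD of 5 mice. The shares of the 2 treatment groups of interest overlap through 1 IL10/2-Trikine mouse at 13.2%, while no PBS mouse overlaps the IL10/2-Trikine mice in depth.

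Tumor epithelial cells made up a larger share of the cells assigned to a mouse after IL10/2-Trikine. The 5 PBS mice had 7.91%, 20.6%, 12.9%, 12.3% and 10.3% of their assigned cells in this class, and the 5 IL10/2-Trikine mice 13.2%, 40.5%, 31.0%, 21.6% and 34.3%. All of the treated mice but the first lay above every PBS mouse (4 of 5). The means were 12.8% ± 4.77 and 28.1% ± 10.8 (SD, n = 5), a difference of 15.3 percentage points (exact two-sided permutation test, p = 0.0159, where 0.00794 was the smallest possible). The mono-IL10 mice ran from 7.95% to 38.6%. These are shares after bead isolation, so carry-over through the beads and tumor content cannot be told apart, and a share also moves with the leukocytes recovered. The limits on keratin, Ptprc and C1q were fixed numbers of UMIs in cells of unequal depth, and their part in the difference was not tested. Before assignment to a mouse, 28.3% of the PBS cells and 44.8% of the IL10/2-Trikine cells within the gene and mitochondrial limits were in this class. With a hashtag share of at least 90%, which left 2 PBS and 3 IL10/2-Trikine mice, the difference was 5.28 points (exact permutation p = 0.7, smallest possible 0.1).

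Across the transcriptome, 2143 of 13046 genes tested (16.4%) differed between IL10/2-Trikine and PBS at an adjusted p under 0.05 (edgeR quasi-likelihood test on summed counts, Benjamini-Hochberg), 1098 of them higher (8.42%) and 1045 lower (8.01%). The median log2 fold change over all genes tested was 0.0079. Among genes with a mean of at least 20 CPM, 324 were called and higher in every IL10/2-Trikine mouse than in every PBS mouse (2.48% of the genes tested), and 710 were called and lower in every one (5.44%). The named genes were the 12 highest and the 12 lowest of these by fold change. Overlap was judged on CPM without the scaling of the fits, whose factors were 0.992 to 1.04 in PBS and 0.957 to 1 in IL10/2-Trikine. Such CPM were lower in IL10/2-Trikine, relative to PBS, than the scaled values. The part of this in the counts of 324 and 710 was not tested. The 12 lowest ran from 1.53-fold lower (Creb5) to 1.87-fold lower (Gdf15). Of the 12 lowest and 12 highest together, all 24 kept their call without any single mouse and under DESeq2. All 24 had the same sign in the tumor cells that could be given to no mouse. The genes were chosen from the same counts and those cells came from the same libraries, so these results are no independent support. In cells thinned to 5000 UMIs each before the keratin, Ptprc and C1q limits were applied, 22 kept their call. The limits on detected genes, mitochondrial UMIs and hashtag share were met before thinning. This alternative was chosen after the data were seen and is here called thinned cells. Cells under 5000 UMIs were left out there, 90 of the 2720 PBS members (3.31%) and 709 of the 6690 IL10/2-Trikine members (10.6%). Since the keratin, Ptprc and C1q limits were applied at the lower depth, the members were partly other cells. They numbered 277 to 1470 a mouse in PBS (237 to 1334 before thinning) and 319 to 3062 in IL10/2-Trikine (344 to 3309 before). Over all genes the thinned cells gave fewer calls, 849, of which 469 were higher and 380 lower. No share of the genes tested is given for that fit, so its list counts below stand without one. With a hashtag share of at least 90% edgeR called 0 of 9528 genes, and 893 had an unadjusted p under 0.05.

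**Figure D2:**
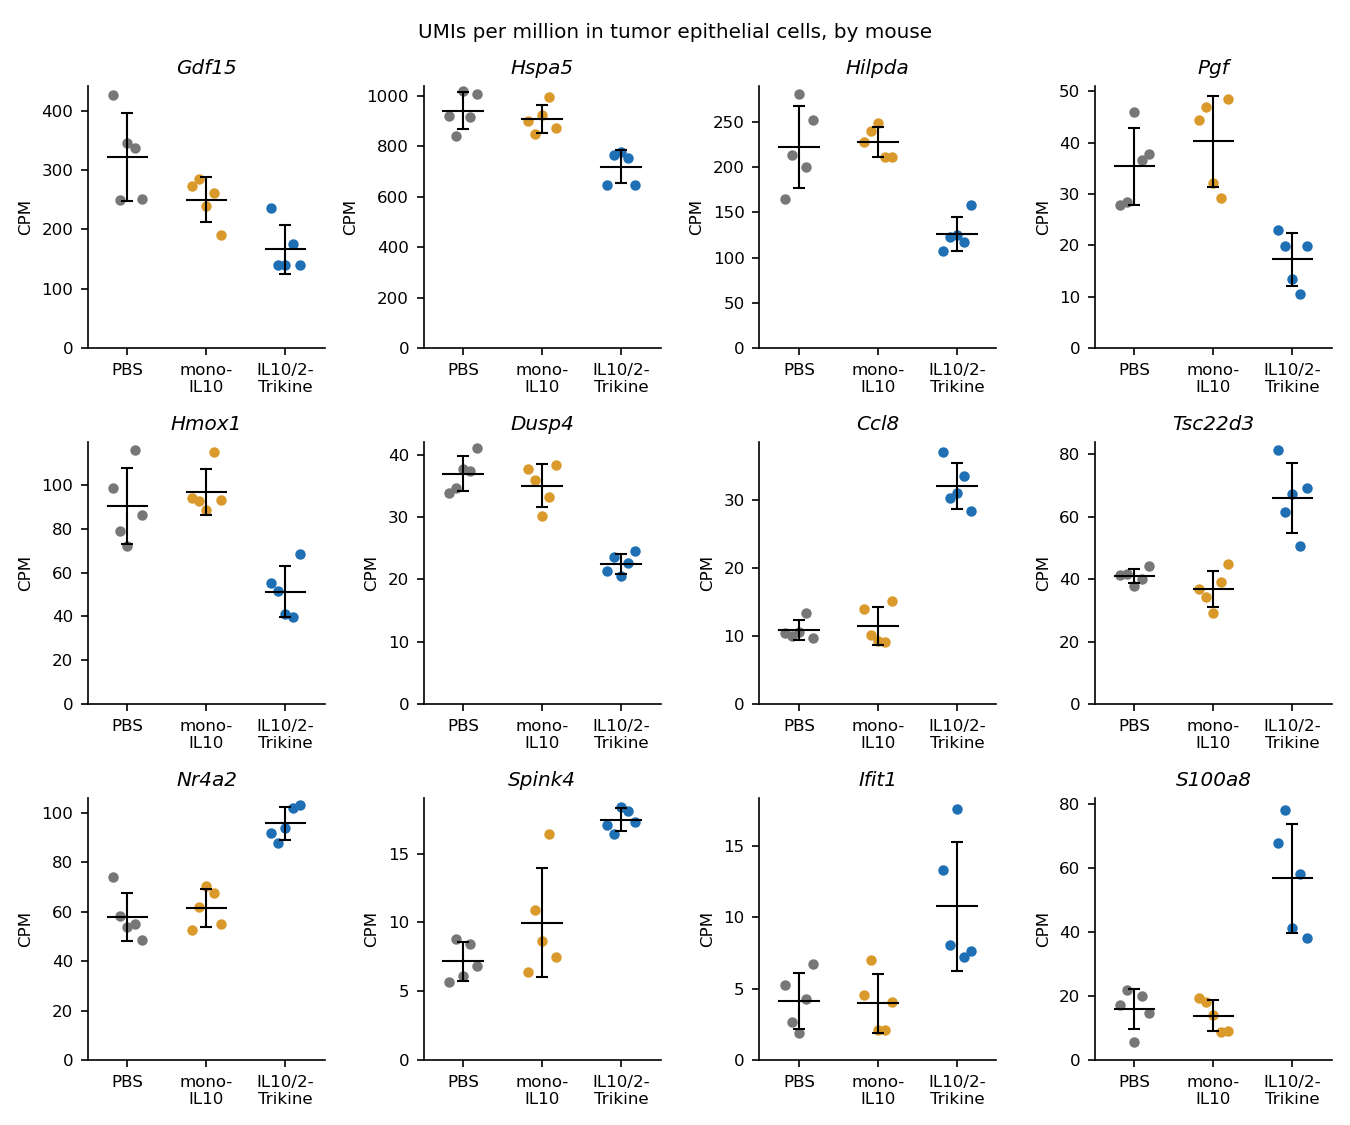
CPM in the summed tumor epithelial cells of each mouse for 12 genes named in the text, with 1 point a mouse and the mean ± SD of 5 mice in each of 3 groups. For Hspa5, Hilpda, Pgf, Hmox1 and Dusp4 every IL10/2-Trikine mouse lies below both other groups and for Ccl8, Tsc22d3 and Nr4a2 above both, while for Gdf15 they overlap with mono-IL10.

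Many stress-response genes were lower after IL10/2-Trikine. Gdf15, a stress hormone induced by ATF4 and CHOP, had 427, 249, 346, 337 and 251.5 CPM in the PBS mice and 236, 140, 141, 175 and 140 CPM in the IL10/2-Trikine mice. Every treated mouse was below every control, although the highest treated mouse, at 236 CPM, came close to the lowest control. The log2 fold change was -0.90 ± 0.17 (SE; adjusted p = 0.0025). Hspa5, the endoplasmic reticulum chaperone BiP, had 920, 842, 1020, 916 and 1007 CPM in PBS and 647, 766, 778, 754 and 647 CPM after IL10/2-Trikine, again without overlap (-0.34 ± 0.07, adjusted p = 0.0033). Hsp90b1, the chaperone GRP94 of the same compartment, lay between 679 and 815 CPM in PBS and between 539 and 648 CPM after treatment (-0.32 ± 0.06, adjusted p = 0.0035).

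Of the 32 genes of the list for the integrated stress and unfolded protein responses, all of them tested, 13 fell, none rose and 19 did not pass, with a median log2 fold change of -0.23. The share of all genes that were called lower was 8.01%, and the list had been chosen with results of these data known. Beside the 3 genes above, the 13 were Ddit3 (CHOP itself, -0.34), Atf3 (-0.33) and Atf5 (-0.33), 3 transcription factors of the response; Sdf2l1 (-0.53) and Hyou1 (-0.36), which help BiP to fold client proteins; Slc3a2 (-0.21), the heavy chain of amino acid exchangers; Phgdh (-0.21), the first enzyme of serine synthesis; Mthfd2 (-0.33), of mitochondrial folate metabolism; Ddit4 (-0.46), an inhibitor of mTORC1; and Nupr1 (-0.39), a stress-induced chromatin protein. All 13 had a negative sign in thinned cells and in the cells without a mouse, and 7 of the list passed in thinned cells. The 13 were chosen from the same counts, and those cells came from the same libraries. Their signs there are therefore no independent support. Pdia3, an oxidoreductase of the same compartment that was listed with MHC class I assembly, lay at 443 to 530 CPM in PBS and 303 to 350 CPM after treatment (-0.51 ± 0.05, adjusted p = 4.56e-05). The lectin chaperones Calr (-0.01 ± 0.06, adjusted p = 0.92) and Canx (0.10 ± 0.04, adjusted p = 0.13), of the same compartment and the same list as Pdia3, did not pass.

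Stretches of promoter are shown for Hspa5 and Hsp90b1 since these genes fell together and are textbook targets of the endoplasmic reticulum stress element, written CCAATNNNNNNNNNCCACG on either strand (RefSeq promoters, GRCm38.p6, the 250 bases before each start). Capitals mark the element. The stretch of Hspa5 is chr2:34772005-34772063 on the plus strand and that of Hsp90b1 chr10:86705513-86705676 on the minus strand, where 2 copies lie in opposite directions.
Hspa5: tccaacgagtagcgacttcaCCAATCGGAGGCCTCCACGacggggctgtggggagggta
Hsp90b1: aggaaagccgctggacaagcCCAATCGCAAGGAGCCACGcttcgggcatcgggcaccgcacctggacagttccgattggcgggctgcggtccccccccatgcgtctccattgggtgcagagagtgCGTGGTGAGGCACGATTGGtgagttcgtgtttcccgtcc
The element was found in 2 of the 12 called stress genes that had a promoter in the table, in 3 of the 28 listed genes with one, and in 35 of 27025 genes in all (0.13%). The shorter element TGATGNAA, bound by C/EBP and ATF4 pairs, was found in Atf3 and Nupr1 among those 12 and in 3.91% of all genes. These matches describe the letters of the window and say nothing about binding in these cells.

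**Figure D3:**
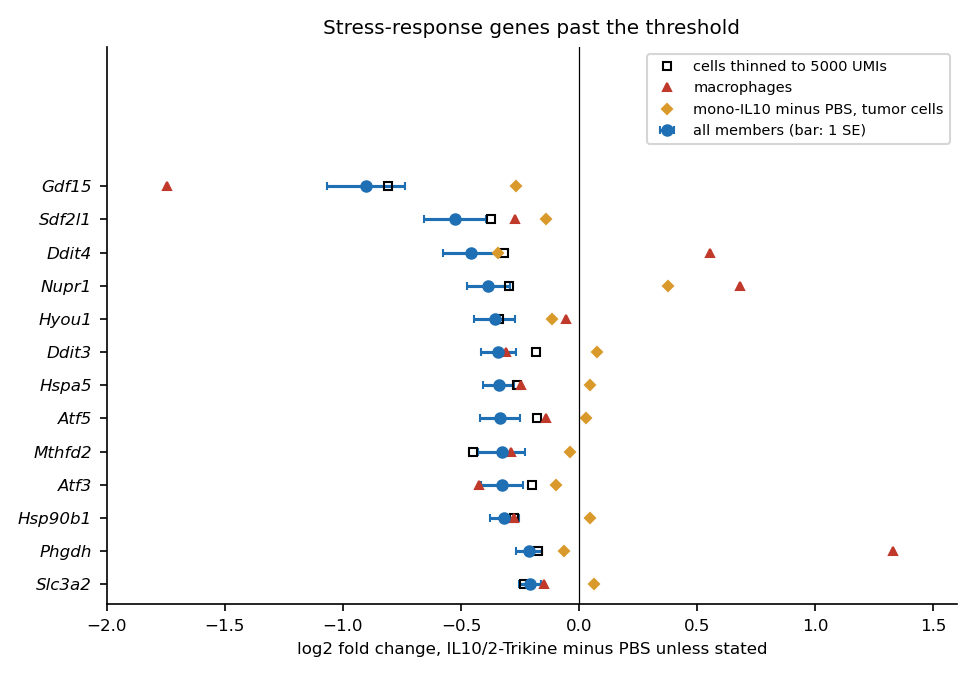
Log2 fold change of the 13 stress-response genes past the threshold, IL10/2-Trikine minus PBS, in all members (circles with bars of 1 SE), in cells thinned to 5000 UMIs (squares) and in macrophages (triangles), beside mono-IL10 minus PBS in tumor epithelial cells (diamonds). Circles and squares all lie below 0, and the macrophage values of Ddit4, Nupr1 and Phgdh lie above 0.

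Heat shock and immediate early genes moved in both directions. Of 27 tested, 9 fell and 3 rose, with a median of -0.21, where 8.01% of all genes were called lower and 8.42% higher. Hspd1, the mitochondrial chaperonin, fell from 343 ± 28.9 to 243 ± 23.5 CPM (-0.45 ± 0.07, adjusted p = 0.00044), and the cytosolic chaperone Hsp90aa1 had 926 to 1363 CPM in PBS and 745 to 900 CPM after treatment (-0.48 ± 0.08, adjusted p = 0.0016). Hsph1 (-0.68) and Dnajb1 (-0.76), co-chaperones of HSP70, Fosl1 (-0.45), an AP-1 subunit, and Btg2 (-0.51), an antiproliferative early gene, also fell, as did Ier3, Klf6 and Atf3. The 3 that rose were Dusp1 (0.31), Egr3 (0.47) and Nr4a1 (0.39). Nr4a2, an orphan nuclear receptor of the same family as Nr4a1 and among the 12 highest genes, had 74.2, 58.1, 54.0, 54.9 and 48.7 CPM in PBS and 92.0, 88.0, 93.8, 102 and 103 CPM after IL10/2-Trikine (0.77 ± 0.10, adjusted p = 0.00018). Among the 15 of the list that did not pass, Fos differed by 0.04 ± 0.08 and Egr1 by -0.03 ± 0.08 on the log2 scale (adjusted p = 0.81 and 0.87). In thinned cells 2 genes of the list were called higher and 5 lower, and Fosl1 did not pass (-0.27, adjusted p = 0.053).

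Hilpda, Pgf, Hmox1, Plin2 and Eno3 were among the 12 lowest genes. Hilpda, a lipid droplet protein that hypoxia induces, had 165, 213, 281, 200 and 253 CPM in PBS and 107, 123, 125, 118 and 158 CPM after IL10/2-Trikine (-0.76 ± 0.13, adjusted p = 0.0011). Pgf, placental growth factor of the VEGF family, had 27.9, 28.5, 46.0, 36.5 and 37.8 CPM against 23.04, 19.8, 13.4, 10.4 and 19.8 CPM (-0.88 ± 0.16, adjusted p = 0.0022). Hmox1, heme oxygenase 1, had 98.8, 79.0, 72.3, 116 and 86.2 CPM against 55.4, 51.4, 41.2, 39.9 and 68.4 CPM (-0.73 ± 0.14, adjusted p = 0.0031). In each of these genes every treated mouse lay below every control. Plin2, which coats lipid droplets, fell from 157 ± 13.7 to 95.7 ± 13.4 CPM (-0.66 ± 0.08), and Eno3, an enolase, by 0.73 ± 0.13 on the log2 scale.

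The hypoxia and glycolysis list as a whole was divided. Of its 34 genes tested, 7 fell, 2 rose and 25 did not pass, with a median of -0.11; the shares called lower and higher were 8.01% and 8.42% of all genes. Those that fell were Pfkfb3 (-0.53), which drives glycolytic flux, Slc2a1 (-0.45), the glucose transporter GLUT1, the hexokinases Hk1 (-0.25) and Hk2 (-0.37), the histone demethylase Kdm3a (-0.27), the peptide Adm (-0.75) and the repressor Bhlhe40 (-0.30). In thinned cells 1 gene of this list was called higher and 6 lower. Slc2a1 and Kdm3a did not pass there (adjusted p = 0.055 and 0.082), and Adm was too low to be tested. Car9, carbonic anhydrase 9 and a standard reporter of hypoxia, had means of 13.95 and 22.2 CPM with overlapping mice and rose (0.61 ± 0.17, adjusted p = 0.027), and Gapdh rose by 0.26 ± 0.07 on the log2 scale. Of the 15 redox and metallothionein genes, Hmox1, Txnrd1 (-0.31) and Gclm (-0.31), all targets of NRF2, fell, while Mt1, a metallothionein, rose from 1424 ± 81.0 to 1985 ± 289.6 CPM (0.53 ± 0.08). The mono-IL10 mice had 1933 ± 143 CPM of Mt1. In thinned cells Gclm did not pass (-0.22, adjusted p = 0.064), while Hmox1, Txnrd1 and Mt1 did.

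Growth factor ligands and early targets of the ERK kinases also moved. Dusp4, an ERK phosphatase, had 33.9, 34.7, 37.8, 37.4 and 41.0 CPM in PBS and 21.3, 23.5, 20.6, 22.6 and 24.5 CPM after IL10/2-Trikine, without overlap (-0.65 ± 0.07, adjusted p = 3.04e-05). The EGF family ligands Areg (-0.39), Hbegf (-0.27) and Nrg1 (-0.48), the phosphatase Dusp5 (-0.37), the urokinase receptor Plaur (-0.39) and Phlda1 (-0.30) fell. The feedback inhibitors Spry2 (0.49) and Spry4 (0.34) and the ligand Tgfa (0.17) rose. In thinned cells Dusp4, Dusp5 and Plaur still passed, and Spry2 did not (0.28, adjusted p = 0.075). The other genes of the 12 lowest were Mir155hg (-0.74), the host transcript of miR-155, Efna1 (-0.72), an ephrin, Arhgap22 (-0.70), a Rac GTPase-activating protein, Gadd45a (-0.62), a DNA damage response gene, and Creb5 (-0.61), a bZIP factor.

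**Figure D4:**
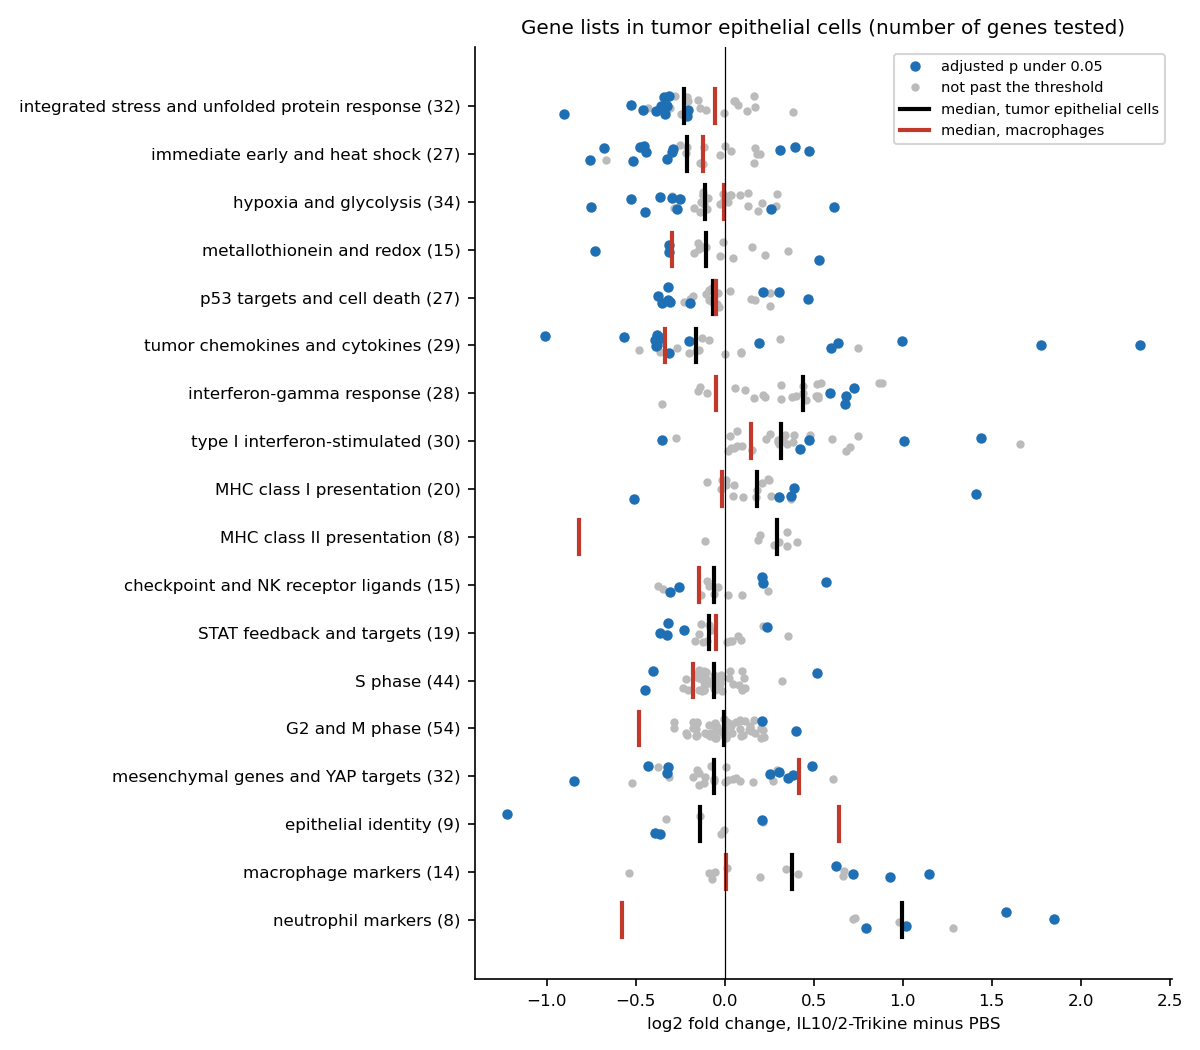
Log2 fold change of the tested genes reported here in 18 lists, IL10/2-Trikine minus PBS in tumor epithelial cells, in blue where the adjusted p was under 0.05 and in grey otherwise, with the list's median in tumor epithelial cells (black) and in macrophages (red). The stress list lies mostly left of 0 (median -0.23) and the interferon-gamma list mostly right of it (median 0.44).

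Few interferon-gamma response genes passed the test, and those that did were higher. Of 28 tested, 5 rose (8.42% of all genes did), none fell and 23 did not pass. The median log2 fold change was 0.44, and 24 of the 28 had a positive sign, against 6702 of all 13046 genes. Those described here are the immunity GTPases Irgm1 (0.59), Irgm2 (0.68), Gbp2 (0.68) and Gbp6 (0.73). Irgm1 had means of 27.0 ± 7.76 CPM (SD, n = 5) in PBS and 39.7 ± 6.72 CPM (SD, n = 5) after IL10/2-Trikine, and the fourth PBS mouse, at 39.1 CPM, lay inside the treated range (adjusted p = 0.024). Without the first IL10/2-Trikine mouse Irgm1, Irgm2 and Gbp6 no longer passed (adjusted p = 0.074, 0.053 and 0.086). Cxcl9, the chemokine that draws CXCR3+ T cells, had 57.6 to 199 CPM in PBS and 123 to 289 CPM after treatment and did not pass (0.88 ± 0.31, adjusted p = 0.068). Irf1 differed by -0.10 ± 0.13 (adjusted p = 0.64) and Cxcl10 by 0.16 ± 0.21 (adjusted p = 0.64). After thinning, 2 genes of the list were called higher and 1 lower, with a median of 0.30.

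Type I interferon-stimulated genes gave 4 that rose and 1 that fell of 30 tested (median 0.31), counts near the shares over all genes (8.42% higher and 8.01% lower). Of the 30, 28 had a positive sign, against 6702 of all 13046 genes. In thinned cells 2 were called higher, with a median of 0.16. Ifit1, which binds foreign RNA, had 5.28, 2.64, 1.88, 4.26 and 6.75 CPM in PBS and 13.3, 8.09, 17.6, 7.25 and 7.62 CPM after IL10/2-Trikine, with no overlap (1.44 ± 0.30, adjusted p = 0.0054). Ifitm2, a membrane protein that blocks viral entry, rose from 387 ± 12.6 to 520 ± 29.7 CPM (0.48 ± 0.05, adjusted p = 5.88e-05). Trim30a (1.01) and Oas2 (0.42) rose as well, and Oasl1 fell by 0.35 on the log2 scale. Stretches of promoter holding the interferon-stimulated response element, searched as GAAANNGAAA on either strand, are shown for 4 of the genes that rose (RefSeq, GRCm38.p6), with the element in capitals: Irgm1 at chr11:48871421-48871470 on the minus strand, Irgm2 at chr11:58214893-58214942, Gbp2 at chr3:142620584-142620633 and Ifit1 at chr19:34640765-34640833, all 3 on the plus strand.
Irgm1: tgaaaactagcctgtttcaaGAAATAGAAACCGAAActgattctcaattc
Irgm2: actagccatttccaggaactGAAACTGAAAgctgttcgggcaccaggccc
Gbp2: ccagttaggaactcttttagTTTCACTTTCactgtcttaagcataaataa
Ifit1: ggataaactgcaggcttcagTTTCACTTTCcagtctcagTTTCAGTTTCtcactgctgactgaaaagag
The copies in Irgm1 overlap. The element was found in all 3 called interferon-gamma genes that had a promoter in the table, in 12 of the 20 listed ones with a promoter, and in 3.46% of all 27025 genes. The element TTCNNNGAA, which STAT dimers bind, was found in Irgm2 alone of those 3 and in 8.13% of all genes.

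Antigen presentation changed little at its most abundant genes. B2m, the light chain of MHC class I, had means of 3856 and 3737 CPM (0.01 ± 0.07, adjusted p = 0.97), and the heavy chains H2-K1 (0.04 ± 0.08) and H2-D1 (-0.02 ± 0.07) did not pass either. Of 20 class I genes, 4 rose and 1, Pdia3, fell (median 0.18), against 8.42% and 8.01% of all genes, and in thinned cells 1 was called higher and 1 lower. Those that rose were Tapbp (0.37) and Tapbpl (0.39), which edit the peptides on class I, H2-T23 (0.30), which is the ligand of NKG2A, and H2-Q7 (1.41), a gene whose reads may be shared with its near-identical Q-region neighbours and which lay at or under 2.40 CPM in every mouse. The 8 class II genes did not pass in tumor epithelial cells (median 0.29, smallest adjusted p = 0.29 by edgeR), where H2-Eb1 ran from 79.4 to 238 CPM in PBS and from 121 to 248 CPM after treatment. In macrophages 7 of the 8 were called lower (median -0.82), where 10.9% of all genes were. For 7 of the 8 the difference between the responses of both cell types passed, with the greater value in tumor epithelial cells (4.99% of all genes). For H2-Aa this difference was 1.28 (adjusted p = 0.0044).

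Among ligands that T and NK cells read, 3 of 15 rose and 2 fell, against 8.42% and 8.01% of all genes, so the counts say little of the ligands as a group. Cd274, which encodes PD-L1, rose from 6.52 to 9.19 CPM (0.57 ± 0.16, adjusted p = 0.023), and its thinned value was 0.03. Cd47, the signal that stops phagocytosis, lay at 270 to 293 CPM in PBS and 299 to 326 CPM after treatment (0.21 ± 0.04, adjusted p = 0.0036), and Cd24a rose by 0.21. Pvr (-0.31) and Nectin2 (-0.26), ligands of DNAM-1 and TIGIT, fell. In thinned cells Pvr still passed (-0.32, adjusted p = 0.042) and Nectin2 did not (-0.14, adjusted p = 0.47). Nectin2 also lost its call when 1 mouse was left out (largest adjusted p = 0.057).

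Chemokines and cytokines of the tumor cells gave 6 that rose and 9 that fell of 29 tested (median -0.16), against 8.42% and 8.01% of all genes; in thinned cells 1 was called higher and 2 lower. Cxcl3, Cxcl16, Csf1, Ccl2, Ccl25, Tnfsf9, Tgfb2, Spp1 and Csf3 fell. Of these Cxcl3, a ligand of CXCR2, had 38.3, 45.5, 43.1, 42.0 and 40.0 CPM in PBS and 33.1, 27.0, 23.4, 24.2 and 26.8 CPM after IL10/2-Trikine (-0.57 ± 0.08, adjusted p = 0.00039), Cxcl16, the ligand of CXCR6, fell by 0.39 on the log2 scale, and Csf1, the macrophage growth factor, by 0.38. Ccl2, which recruits monocytes, had means of 304 and 236 CPM (-0.31 ± 0.09, adjusted p = 0.024), and Csf3, the neutrophil growth factor, of 3.25 and 1.35 CPM (-1.01 ± 0.29, adjusted p = 0.029). Cxcl2, also a ligand of CXCR2, went the other way, with 155 to 207 CPM in PBS and 223 to 302 CPM after treatment (0.63 ± 0.09, adjusted p = 0.00055), but was at -0.08 in thinned cells. Mif rose by 0.19 (0.24 in thinned cells). The other genes that rose had means of at most 5.73 CPM. Of these Tnf (0.60) was at -0.11 in thinned cells and 0.20 under a stricter immune limit (no C1q UMI and at most 2 UMIs of 10 immune genes), past the threshold in neither (adjusted p = 0.87 and 0.69), and Ccl5 (1.78) was at 0.25 in thinned cells (adjusted p = 0.82). Il23a and Cxcl14 were too low to be tested in thinned cells.

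The receptors of the cytokine itself were low. Il10rb lay at 11.8 to 15.2 CPM in PBS and at 14.9 to 18.1 CPM after treatment (0.30 ± 0.08, adjusted p = 0.021; 0.12 in thinned cells). Il10ra was at most 0.99 CPM in PBS and 1.82 CPM after treatment and did not pass (adjusted p = 0.15), against 128 and 105 CPM in macrophages. Il2rb, at most 1.35 CPM, was too low to be tested, and Il2rg lay at 2.21 to 5.14 CPM (-0.01 ± 0.19, adjusted p = 0.98). Jak1, a kinase of both receptor families, fell by 0.20 ± 0.05 on the log2 scale. Of 19 feedback genes and targets of STAT proteins, Cebpb (-0.37), Bcl3 (-0.32), Cish (-0.32) and Nfkbia (-0.23) fell, Pim1 (0.24) rose and 14 did not pass (median -0.09), where 8.01% of all genes were called lower and 8.42% higher. In thinned cells Cebpb and Bcl3 were still called, while Cish, Nfkbia and Pim1 were not (adjusted p = 0.26, 0.13 and 0.088).

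Of the 9 epithelial identity genes tested 1 rose and 3 fell (median -0.14), where 8.42% of all genes were called higher and 8.01% lower; 1 was higher and 2 were lower in thinned cells. Cldn4, a tight junction claudin, had 12.8, 9.97, 15.04, 10.2 and 13.4 CPM in PBS and 5.09, 4.92, 2.60, 5.21 and 6.02 CPM after IL10/2-Trikine (-1.23 ± 0.16, adjusted p = 0.00023). Krt19 (-0.39) and Krt7 (-0.36) fell and Cd24a rose, while Cdh1 did not pass (-0.0039 ± 0.05, adjusted p = 0.98). Spink4, a goblet-type secreted inhibitor, had 5.65, 8.80, 6.11, 8.45 and 6.84 CPM against 17.1, 16.4, 18.4, 18.1 and 17.3 CPM (1.26 ± 0.11, adjusted p = 7.33e-06), and was the one called gene of 17 trefoil and gastric-type genes. Of 44 S phase genes 1 rose and 2 fell, and of 54 G2 and M phase genes 2 rose and none fell (the 2 were Lbr and Tmpo, both of the nuclear envelope). In thinned cells no S phase gene was called, and neither Lbr nor Tmpo passed (adjusted p = 0.097 and 0.057), while Hmgb2 (0.24) and Cdc25c (0.67) were called higher and Bub1 (-0.43) lower. Mki67 had means of 89.6 and 71.5 CPM and did not pass (-0.29 ± 0.11, adjusted p = 0.085; -0.22 in thinned cells). Mesenchymal genes and YAP targets were divided, with 5 of 32 higher and 5 lower, against 8.42% and 8.01% of all genes. Those that rose were the calcium-binding proteins S100a6, with means of 19360 and 23940 CPM (0.35 ± 0.06, adjusted p = 0.0020), and S100a4 (0.38), Cdh2 (N-cadherin, 0.25), Ajuba (0.30) and Tgfbi (0.49), of which Tgfbi was called lower in thinned cells (-0.70, adjusted p = 0.017). Among those that fell were Vim (-0.32), Anxa1 (-0.43), Mmp13 (-0.85) and Ankrd1 (-0.33). Of 27 p53 and cell death genes 3 rose and 6 fell, with Cdkn1a, the p21 inhibitor, at -0.32 and Zmat3 at 0.47; in thinned cells these were the only calls of the list, 1 lower and 1 higher. Of the 15 acute-phase and complement genes tested 4 rose (Saa3, Serping1, C4b and C3) and none passed in thinned cells, and in Saa3 and Serping1 the first IL10/2-Trikine mouse stood apart at 10.3 and 12.8 CPM. Of 17 pancreatic and foregut regulators 1 rose and 1 fell, and of 4 Ly6 genes tested 1 fell.

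The genes with the largest rise included several of leukocytes. S100a8, a subunit of the neutrophil protein calprotectin, had 17.1, 21.8, 5.73, 20.1 and 14.6 CPM in PBS and 67.7, 78.2, 41.4, 58.2 and 38.1 CPM after IL10/2-Trikine (1.85 ± 0.25, adjusted p = 0.00031), and its partner S100a9 rose by 1.58 ± 0.28. In thinned cells their differences were 0.48 and 0.30 and did not pass (adjusted p = 0.22 and 0.45). Under the stricter immune limit they were 1.97 and 2.11 and passed (adjusted p = 0.0057 and 0.0023). The 8 neutrophil markers summed to 21.9 to 69.5 CPM in PBS and 83.8 to 198 CPM after treatment, and none was at 0 in all mice. Of the 8, 4 were called higher, where 8.42% of all genes were, and none in thinned cells. The 15 macrophage markers summed to 470 to 545 CPM and 488 to 579 CPM. Of the 14 tested, 4 were called higher (Fcer1g, Apoe, Tyrobp and Fcgr3), against the same 8.42%. In thinned cells 3 markers of the list were called lower and none higher. T cell markers summed to 7.14 to 9.08 CPM in PBS and 9.997 to 16.8 CPM after treatment, without overlap, and neither of the 2 that could be tested was called. B cell markers summed to at most 1.36 CPM in every mouse. NK cell markers summed to 2.95 to 7.43 CPM in PBS and 4.98 to 28.0 CPM after treatment, where Ccl5 was called, and fibroblast markers to 87.3 to 213 CPM and 31.0 to 546 CPM, where Dcn was called. Ccl5 and Dcn each lost the call when 1 mouse was left out (largest adjusted p = 0.13 and 0.14). The first IL10/2-Trikine mouse had the highest value of both, at 13.4 and 12.9 CPM. In thinned cells 2 fibroblast markers were called higher, Col3a1 (1.22, adjusted p = 0.017) and Col1a2 (1.29, adjusted p = 0.046), and Dcn was too low to be tested. Dendritic cell, mast cell, endothelial and erythroid markers had no call. The limits on Ptprc and C1q were fixed numbers of UMIs in cells of unequal depth in all members and under the stricter limit, and applied at equal depth in the thinned cells. The part of leukocyte and fibroblast RNA in these values was not tested.

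Ccl8, a monocyte and T cell attracting chemokine, held its difference under thinning. It had 10.4, 10.0, 10.5, 13.4 and 9.72 CPM in PBS and 37.1, 30.3, 31.0, 33.5 and 28.4 CPM after IL10/2-Trikine (1.61 ± 0.10, adjusted p = 2.32e-07; 1.55 in thinned cells). Macrophages held 1011 CPM in PBS and 2824 CPM after treatment, and their difference was 1.45; the part of macrophage RNA in the tumor cell value was not tested. Tsc22d3 (GILZ, a glucocorticoid-induced gene) had 41.3, 41.6, 37.8, 40.1 and 44.3 CPM against 81.3, 61.4, 67.4, 50.5 and 69.0 CPM (0.75 ± 0.09, adjusted p = 0.00013). The groups were separate, and the gene was called in macrophages too (0.56). S100g (0.89), a calcium-binding protein, Pcyox1l (0.77), Vkorc1 (0.77), of the vitamin K cycle, the transcript AW112010 (0.74) and Rps27rt (0.73), whose reads may be shared with Rps27, were also among the 12 highest.

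Xist, the RNA that silences an X chromosome, was higher in every treated mouse. It had 3566, 3303, 3362, 3412 and 3482 CPM in PBS and 6259, 5717, 5501, 5886 and 5749 CPM after IL10/2-Trikine (0.81 ± 0.05, adjusted p = 2.32e-07), and 0.45 in macrophages. Other RNAs that stay in the nucleus, picked after the values were seen, were not higher: Malat1 fell by 0.49 and Kcnq1ot1 fell by 0.35 on the log2 scale, and Neat1 did not pass (-0.14 ± 0.05, adjusted p = 0.11). The mitochondrial transcript mt-Co1 was higher by 0.37. Genes of ribosomal proteins, also picked after the values were seen, were called higher in 50 of 77 tested and lower in 2 (median 0.20). In macrophages they were called higher in 18 of 79, where 10.4% of all genes were. Between mono-IL10 and PBS they were called higher in 46 of 77, where 1.51% of all genes were. Against mono-IL10, 19 of 77 were higher and 17 lower (median 0.03), where 12.5% and 13.5% of all genes were. Genes whose longest transcript was under 1000 bases had a median of 0.12 and 21.7% of them were called higher, against 8.42% of all genes and 7.95% of genes of 4000 bases or more. Treatment and library cannot be told apart in these values.

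Macrophages of the same mice (at least 5 C1q UMIs and at most 2 keratin UMIs; 9257 cells in PBS and 7889 in IL10/2-Trikine) were tested in the same way. There 2794 of 13094 genes were called (21.3%), 1367 higher (10.4%) and 1427 lower (10.9%). The test of the difference between both responses, with the mouse as a block, called 1283 of 14878 genes (8.62%), 743 with the greater value in tumor epithelial cells (4.99%) and 540 with the smaller (3.63%). Without the second IL10/2-Trikine mouse it called 826. Of the 24 genes named by fold, 20 had the same sign in macrophages, 17 were called there (15 with the same sign and 2, S100a9 and Pgf, with the opposite one) and 10 differed between the cell types. S100a9 was at -0.60 in macrophages (adjusted p = 0.038). Pgf, at 0.74 in macrophages, differed by -1.62 (adjusted p = 0.00080), Hilpda by -0.66, Hmox1 by -0.64 and Plin2 by -0.53, with macrophage values of -0.05, -0.05 and -0.09 for the last 3 genes. Gdf15 fell more in macrophages (-1.74), with a difference of 0.93 (adjusted p = 0.043). Of the 13 stress genes, 10 had a negative sign in macrophages and 5 were called lower there, while Nupr1, Ddit4 and Phgdh were called higher there; 4 of the 13 differed between the cell types. Of 7 epithelial identity genes tested in macrophages, 4 were called higher after treatment, among them Krt19 with means of 4.28 and 10.4 CPM, 1 was called lower (Cd24a, -0.34, adjusted p = 0.016) and 2 did not pass, in the library with the larger share of tumor epithelial cells.

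**Figure D5:**
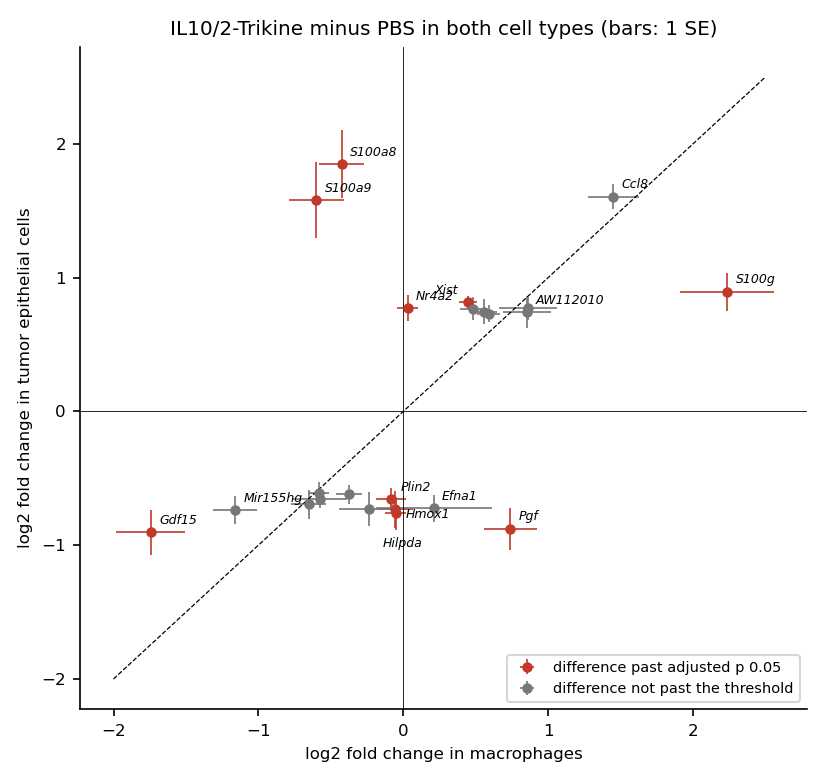
Log2 fold change, IL10/2-Trikine minus PBS, of 23 of the 24 genes named by fold in macrophages (x axis) and tumor epithelial cells (y axis), with bars of 1 SE, a dashed line of equal change and the 10 genes whose difference passed the threshold in red. S100a8 and S100a9 lie at the upper left, Pgf at the lower right, and Ccl8 near the line.

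The mono-IL10 mice, with 3692 tumor epithelial cells, served as a second reference. IL10/2-Trikine against mono-IL10 called 3575 of 13750 genes (26.0%), 1712 higher (12.5%) and 1863 lower (13.5%), whereas mono-IL10 against PBS called 291 (2.12%), 208 higher (1.51%) and 83 lower (0.604%). Each pair of contrasts shares a group, so their values are given side by side. Of the 24 genes named by fold, 21 were called against mono-IL10 and all 24 had the same sign as against PBS, while 2 (S100g and Vkorc1) were called between mono-IL10 and PBS. Of the 13 stress genes, 10 were called lower against mono-IL10, and 1 of them, Nupr1, was called between mono-IL10 and PBS, where it was higher (0.38). Of the 28 interferon-gamma genes, 1 was called higher and 2 lower against mono-IL10 (median 0.12), and the median between mono-IL10 and PBS was 0.31. Of the 30 type I interferon-stimulated genes, 6 were called higher and 1 lower against mono-IL10 (median 0.39). Their median between mono-IL10 and PBS was -0.04. Of other genes named above, Mt1 (0.53), Cxcl2 (0.72), S100a6 (0.30) and Ifitm2 (0.35) were called higher between mono-IL10 and PBS. None of these was called against mono-IL10 (-0.01, -0.08, 0.06 and 0.13, adjusted p = 0.97, 0.72, 0.55 and 0.065). Vim (0.32), Fosl1 (0.41) and Nfkbia (0.38) were also called higher in mono-IL10 than in PBS, but lower in IL10/2-Trikine against mono-IL10 (-0.63, -0.86 and -0.61). Median depth in mono-IL10 (35532 UMIs a cell) was higher than in PBS, so that the IL10/2-Trikine library stood at the low end in both contrasts.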

How the data were processed

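Single-cell 5′ libraries (GEM-X) were analysed from 3 treatment groups, each 1 gene expression and 1 hashtag library. The deposited matrices hold whole UMI counts per gene and barcode (34187 genes, 5 hashtags), which the authors made with Cell Ranger 9.0.1 on GRCm39 (Seurat 5.1.0 and DESeq2 1.46.0 are also named in the submitters' processing notes). A deposited table of Seurat metadata covers T and NK cells that the authors annotated and was not used here. No doublet caller was run beyond the hashtag limit. Members, lists and tests were chosen with earlier results of these data known.

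Counts of members were summed per mouse (at least 20 cells) and tested with edgeR 4.0.16 in R 4.3.3 (TMM, filterByExpr, quasi-likelihood F test, Benjamini-Hochberg over all genes tested, threshold 0.05); adjusted p-values in the text come from these fits. Log2 fold changes are IL10/2-Trikine minus PBS with their SE unless another contrast is named. CPM (counts scaled to a common total) were taken over all genes, without TMM. The macrophage comparison kept the mouse as a block, and the mono-IL10 contrasts used 1 fit of 15 mice. Shares of cells were compared with an exact permutation test over all splits of the mice (numpy 2.4.6). Scripts were tested on simulated data. Alternatives were DESeq2 1.42.0, RLE scaling, no filter on low counts, all 15 mice, other limits per cell, thinned cells (chosen after the data were seen) and leaving out each mouse.

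The text names the 12 highest and 12 lowest called genes by fold change with no overlap between the mice and a mean of at least 20 CPM (leaving out the genes of the cell rule, mitochondrial genes and unnamed models), up to 4 genes of each list by smallest p, the receptor chains, and genes that check identity and sex; other called list members were named after their values were seen. Some genes and 1 list are not reported here. Promoters came from RefSeq (GRCm38.p6), another build than that of the counts, and were matched by gene symbol.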

Additional observations from a re-analysis of the deposited data

Results flagged for a closer look

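Single mice stood apart from the other 4 of their group in 18 of 270 sets of 5 CPM values examined, and chance gives about 1 in 20. In PBS these were mouse 1 for Vkorc1 (28.88) and Oasl1 (20.65), mouse 2 for Pcyox1l (15.43) and Tff1 (50.61), mouse 3 for Cd47 (293.3), Gzmb (4.23) and Ddx3y (0.094), mouse 4 for Ccl8 (13.4), and mouse 5 for Mir155hg (47.61), Saa3 (2.25) and Mt1 (1566). After IL10/2-Trikine they were mouse 1 for Tapbp (165.6), Serping1 (12.79) and Saa3 (10.32), mouse 2 for Ddx3y (0.02782), and mouse 5 for C4b (34.09), Fscn1 (20.27) and Il2rg (2.703).

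The responses of tumor epithelial cells and macrophages differed by the edgeR test of the difference in 1283 genes. Among the genes named by fold, the tumor epithelial log2 response minus that of macrophages was 2.365 for S100a8, 2.277 for S100a9, 0.9284 for Gdf15, 0.7948 for Nr4a2 and 0.4134 for Xist. It was -0.5259 for Plin2, -0.6438 for Hmox1, -0.6607 for Hilpda, -1.409 for S100g and -1.619 for Pgf.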

How the results depend on the processing

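No paired analysis was possible because the labels number no mice, and a hashtag number names an antibody and not a link between mice of different groups. A hashtag share of at least 90% left 2 PBS and 3 IL10/2-Trikine mice, where edgeR called 0 genes (0 higher, 0 lower; 893 at an unadjusted p under 0.05) and 0 stress genes lower, Irgm2 turned to -0.0626, and the share difference was 5.279 points (exact permutation p = 0.7). In thinned cells 849 genes were called (469 higher, 380 lower), 7 stress genes were lower, and Cxcl2 (-0.0790), Fcer1g (-0.14), Apoe (-0.26), Tyrobp (-0.26), Fcgr3 (-0.37) and Il1r2 (-0.53) turned negative, as did Tnf (-0.11) and Tgfbi (-0.70) among the further members of the lists, where Gsdme (-0.31) turned to 0.052. Without a filter on low counts 1147 genes had the greater response in tumor epithelial cells. Between mono-IL10 and PBS, DESeq2 called 483 genes (336 higher, 147 lower) and the stricter immune limit 170 (121 and 49). The causes were not tested. Leaving out 1 mouse at a time gave 1586 to 2043 called genes (804 to 1038 higher, 757 to 1057 lower), 12 to 15 stress genes lower, 826 to 1204 genes differing from macrophages (462 to 684 greater, 364 to 536 smaller, lowest without the second IL10/2-Trikine mouse) and share differences of 12.22 to 19.03 points. Of 98 named genes called, 80 kept the call without any 1 mouse. Of the 93 with a value in thinned cells, 54 kept the call, 33 no longer passed and 6 changed sign. The shallower IL10/2-Trikine cells limit what can be said of genes of few UMIs.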
